A study of Mus musculus with 2 samples.

Results

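The fibulins are a small family of secreted glycoproteins of the extracellular matrix. Of these, 6 genes, Fbln1, Fbln2, Fbln5, Fbln7, Efemp1 (fibulin-3) and Efemp2 (fibulin-4), were compared between 2 segments of the mouse aorta, a lesion-prone and a lesion-resistant one. Every gene spot that carried 1 of these names, or whose accession leads to it, was taken, which gave 8 probes out of 41161 and 6 genes out of the 22811 that could be compared. In the files 5 genes carry the current name, and Fbln7 is listed as 1600015H20Rik and was named through its accession. The family was chosen by its log2 ratios between these 2 pools, which were known beforehand, so the values below describe it and were not tested.

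The prone tissue, called arch here, ran from the aortic root through the arch and took in 2 mm of the adjoining thoracic aorta. Resistant tissue, called thoracic here, was the 6 mm that follow. All mice were apoE-/-, which lack apolipoprotein E and develop atherosclerosis, and were 16 weeks old, and neither pool came from mice with an intact Apoe gene. The vessels were perfused with Triton X-100 to strip the endothelium, RNA of 6 mice (3 males, 3 females) was pooled per segment, and the pools shared 2 two-colour arrays in a dye swap. Since both arrays read the same pair of RNA pools, they count as 1 replicate: values are means ± SD over arrays (n = 2, technical), which leaves out the spread between mice and allows no p-value.

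Fibulins carry a row of calcium-binding EGF-like repeats and, in nearly all members, a fibulin-type domain at the carboxyl end. In the arterial wall the short fibulins Fbln5 and Efemp2 are needed to assemble elastic fibres, the sheets of cross-linked elastin that let the aorta recoil. Mice without Fbln5 have a stiff, tortuous aorta, and mice with too little Efemp2 form aneurysms of the ascending aorta. Fbln1 and Fbln2 are longer members found in basement membranes and elastic fibres, where they bind lecticans, nidogens, laminins and fibronectin.

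The family was split between the segments. Efemp1 was 2.47-fold higher in the arch pool and Fbln7 3.28-fold higher in the thoracic pool. Fbln5 and Fbln2 lay 1.75-fold and 1.72-fold higher in the arch pool, and Fbln1 and Efemp2 differed by 1.16-fold and 1.07-fold. A gene was called when its mean difference reached 2-fold and both arrays reached 1.5-fold the same way. By this size rule 1 of the 6 was called higher in the arch pool, where 0.473% of all genes were (108 genes), and 1 of the 6 in the thoracic pool, where 0.145% were (33 genes). The members' median log2 ratio of arch over thoracic was 0.50, against -0.01 over all genes. Without loess, which here and below means median centring in its place, these medians were 0.35 and -0.01. Both steps remove the overall dye difference, and loess also removes its trend with brightness. These shares and medians rest on the contrast by which the family was picked, so nothing is read from them.

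The stretches of DNA just before the start sites of Efemp1 and Fbln7 are printed because these genes differ most, and in opposite directions. Each line runs 5′ to 3′ over the 250 bases before the annotated start (RefSeq, build GRCm38.p6; Efemp1 at chr11:28852955-28853204, plus strand; Fbln7 at chr2:128863682-128863931, plus strand), with capitals at matches to a searched motif.
Efemp1: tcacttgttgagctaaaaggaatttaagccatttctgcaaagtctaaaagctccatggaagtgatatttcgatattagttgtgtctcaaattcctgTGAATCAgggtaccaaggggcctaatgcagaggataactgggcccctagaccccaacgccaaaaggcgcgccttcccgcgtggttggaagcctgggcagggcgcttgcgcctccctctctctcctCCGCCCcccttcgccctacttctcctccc
Fbln7: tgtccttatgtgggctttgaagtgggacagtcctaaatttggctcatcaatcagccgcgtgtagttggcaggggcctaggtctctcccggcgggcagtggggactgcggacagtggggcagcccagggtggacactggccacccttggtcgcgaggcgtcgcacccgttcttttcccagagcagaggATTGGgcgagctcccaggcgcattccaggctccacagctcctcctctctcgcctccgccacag
Motifs were searched on both strands. The TATA motif (TATAAA) is held by 12.4% of 32851 RefSeq windows of this length. The CCAAT motif (the same letters) is held by 33.8% and the GC box (GGGCGG) by 32.7%. The pattern TGANTCA is held by 6.75%, and the CArG box of serum response factor by 1.47%. TGANTCA takes any base at its centre, so it is wider than the consensus motif of AP-1 factors. In the Efemp1 window a TGANTCA match, with A at its centre, begins 154 bases before the start. A GC box on the minus strand begins 29 bases before it. The Fbln7 window holds a CCAAT match on the minus strand, 63 bases before the start, and no other of these motifs. Over all 10 annotated windows of the 6 genes, 5 genes had a GC box, 2 a CCAAT match and 1 a TGANTCA match. None had a TATA motif or a CArG box. These counts are per gene, and a gene with several windows has more chances of a match. They cannot be set against the shares above, which are per window. These are letter matches only, and binding was not measured.

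**Figure D1:**
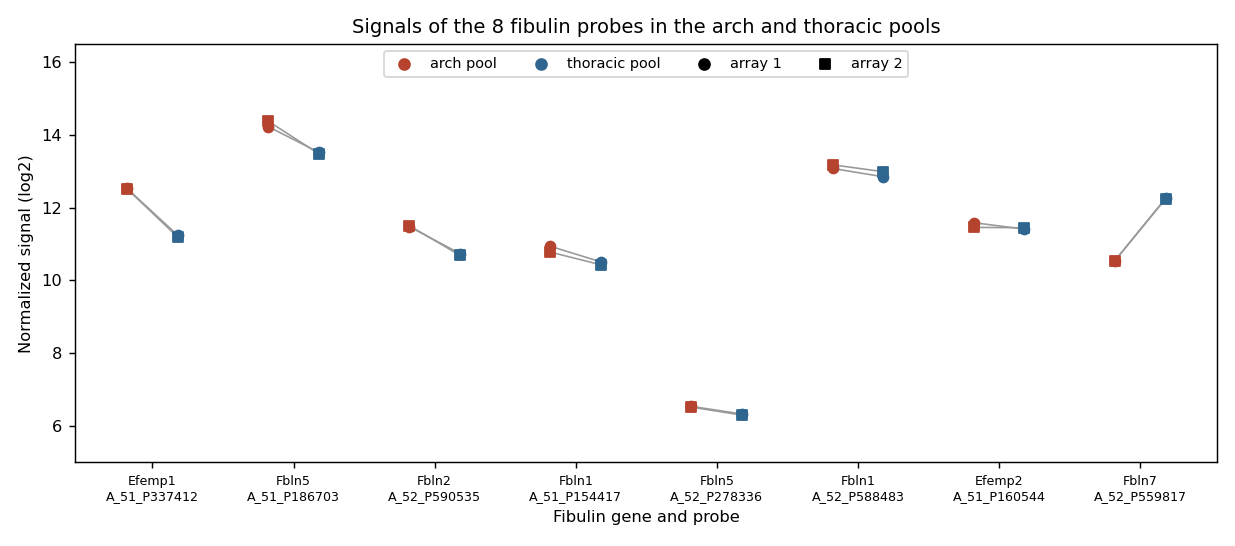
Normalized signal (log2, vertical axis) of each fibulin probe (horizontal axis, in order of its ratio) in the arch pool (red, left) and the thoracic pool (blue, right), with circles for array 1, squares for array 2 and lines joining the pools on 1 array. All 7 arch-high probes slope down to the right on both arrays, the slope of Efemp2 on array 2 being nearly flat, and Fbln7 (A_52_P559817) slopes up.

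Efemp1 encodes a short fibulin of connective tissue and basement membranes that binds the metalloproteinase inhibitor TIMP3. Its probe gave a mean scanner signal of 4951 units in the arch pool (Cy3) against 2846 in the thoracic pool (Cy5) on array 1. With the dyes exchanged on array 2 it gave 6734 in the arch pool (Cy5) against 2130 in the thoracic pool (Cy3). These signals are not corrected for dye. After background correction and loess the log2 ratios of arch over thoracic were 1.29 and 1.33, a mean of 1.31 ± 0.03. The arch signal was thus the higher on both arrays whichever dye it carried. Efemp1 had the 44th largest ratio towards the arch among 22811 genes.

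Fbln7, also called TM14, is a short fibulin known from tooth and cartilage as a cell-adhesion protein. It was the member that ran against the others. Its probe gave 1299 units in the arch pool against 5735 in the thoracic pool on array 1, and 1725 in the arch pool against 4356 in the thoracic pool on array 2. The log2 ratios were -1.72 and -1.70, a mean of -1.71 ± 0.02, which puts the arch pool at 30.5% of the thoracic pool. The thoracic signal was higher on both arrays, and only 12 of the 22811 genes had a lower ratio. Fbln7 rests on a single probe, as do Efemp1, Fbln2 and Efemp2.

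Fbln5 ties elastin to microfibrils and to integrins on the cell surface. Its bright probe gave 15512 units in the arch pool against 14725 in the thoracic pool on array 1, and 23906 in the arch pool against 10236 in the thoracic pool on array 2. The log2 ratios were 0.71 and 0.90, a mean of 0.81 ± 0.14, the widest gap between arrays in the family. The near-equal raw signals of array 1 stand against a wide gap on array 2. After loess, which removes the dye difference along the range of brightness, both arrays put Fbln5 higher in the arch pool.

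The other Fbln5 probe was dim and showed less. It gave 124 units in the arch pool against 102 in the thoracic pool on array 1, and 117 in the arch pool against 114 in the thoracic pool on array 2. The brightest negative control spots reached 122.7 (arch) and 93.6 (thoracic) on array 1, and 100.0 (arch) and 123.7 (thoracic) on array 2. Its log2 ratio was 0.21 ± 0.01, and 0.56 in the deposited log ratios, so the probes share a direction but not a size. Which splice forms each probe reads was not examined.

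Fbln2, which binds versican and aggrecan and shares the inner elastic lamina with Fbln5, followed Fbln5 closely. Its probe gave 2481 units in the arch pool against 1992 in the thoracic pool on array 1. On array 2 it gave 3359 in the arch pool against 1508 in the thoracic pool. The log2 ratios were 0.74 and 0.82 (mean 0.78 ± 0.06), higher in the arch pool on both arrays and inside the range of Fbln5. A limit of 1.5-fold on the mean and on each array was met by 3 of the 6 genes towards the arch (Efemp1, Fbln2 and Fbln5; 1.2% of all genes) and by 1 towards the thoracic pool (Fbln7; 0.386% of all genes).

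Fbln1, a cofactor of the protease ADAMTS1 and a ligand of fibrinogen and nidogen, differed little. Its brighter probe gave 7093 units in the arch pool against 8932 in the thoracic pool on array 1, and 10392 in the arch pool against 7230 in the thoracic pool on array 2. In both cases the Cy5 signal was the higher. After loess the ratios were 0.23 and 0.19 (mean 0.21 ± 0.03). The further probe gave 1732 units in the arch pool against 1696 in the thoracic pool on array 1, and 2030 in the arch pool against 1261 in the thoracic pool on array 2, with a mean log2 ratio of 0.39 ± 0.06. Both probes lay above 0 on both arrays and under 1.5-fold.

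Efemp2, which brings lysyl oxidase to elastin, was the member closest to 0. Its signals were 2646 in the arch pool against 3207 in the thoracic pool on array 1, and 3218 in the arch pool against 2511 in the thoracic pool on array 2. The ratios of 0.18 and 0.01 averaged 0.09 ± 0.12, a mean smaller than the SD between the arrays.

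**Figure D2:**
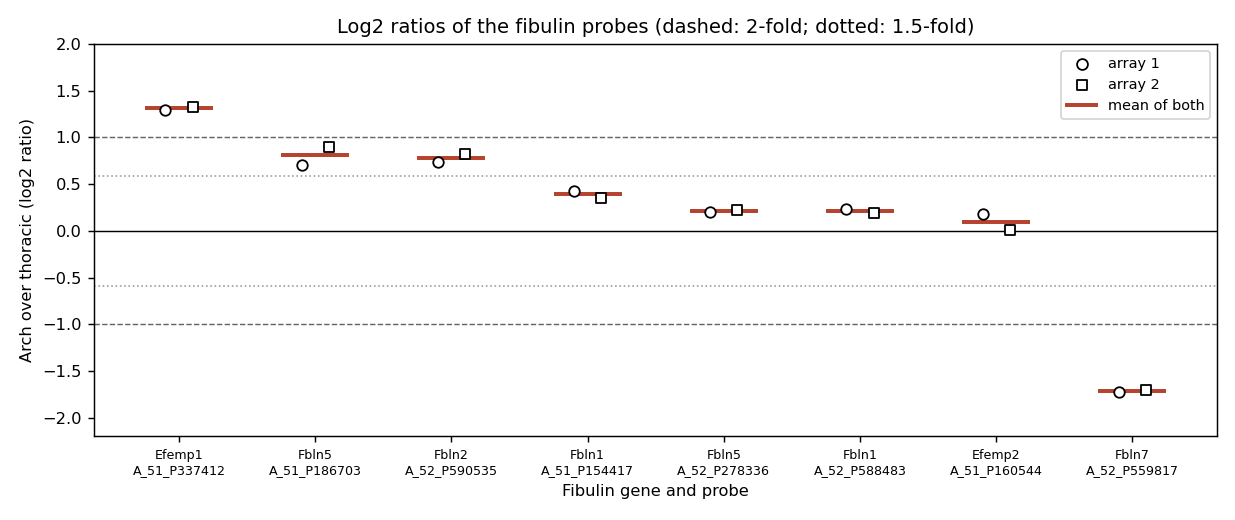
Log2 ratio of arch over thoracic (vertical axis) for each fibulin probe (horizontal axis) on array 1 (circle) and array 2 (square), with the mean as a red bar, dashed lines at 2-fold and dotted lines at 1.5-fold. Efemp1 lies above the upper 2-fold line and Fbln7 below the lower one on both arrays.

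In order of their ratios the genes ran Efemp1, Fbln5, Fbln2, Fbln1, Efemp2 and Fbln7. The neighbours Fbln5 and Fbln2 overlapped between arrays, and Fbln1 and Efemp2 stood 0.12 apart, about the SD of Efemp2. The distance from Efemp1 to Fbln7 was 3.02 log2 units, while the SD between arrays ran from 0.02 to 0.14 over the 6 genes, against a median of 0.06 over all genes. The dye term, the mean of red over green without turning, lay between -0.08 and 0.10 for the 8 probes. All 8 were well above background in both pools on both arrays by the scanner software's flag, and none was saturated.

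**Figure D3:**
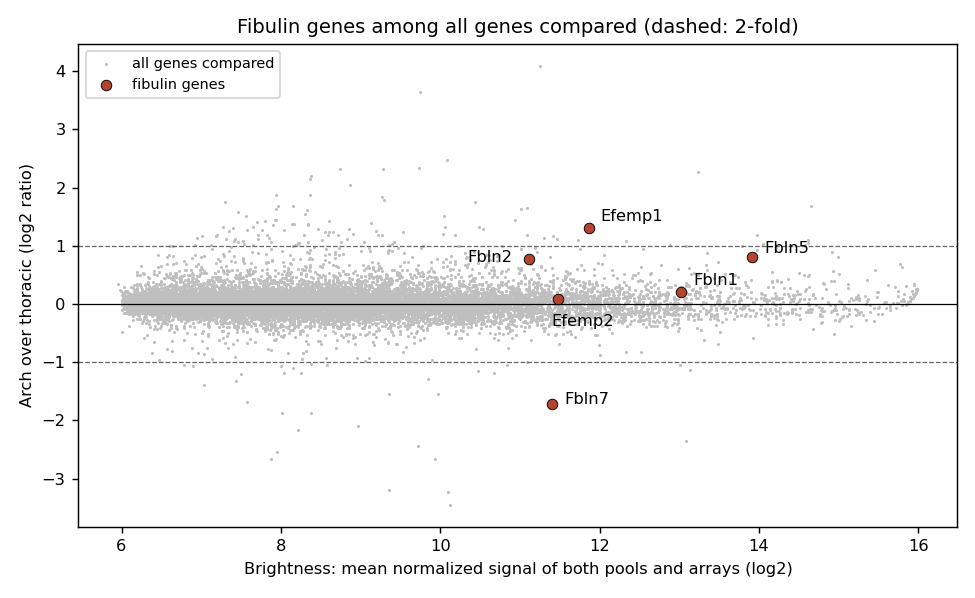
Log2 ratio of arch over thoracic (vertical axis) against brightness, the mean normalized log2 signal (horizontal axis), for the 22811 genes compared (grey) and the 6 fibulins (red), with dashed lines at 2-fold. Fbln7 at -1.71 and Efemp1 at 1.31 lie outside the band that holds nearly all genes, and Efemp2 at 0.09 lies inside it.

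The genes whose ratios on the 2 arrays lay nearest to those of Efemp1 were Krt19, a keratin of epithelia and mesothelium (1.32 ± 0.01), Lratd2 (1.28 ± 0.02) and Mpeg1, a macrophage pore protein (1.33 ± 0.05). A further Mpeg1 probe stood at 0.36. Nearest to Fbln7 were the patterning factor Hoxc6 (-1.87 ± 0.08), the LIM protein Fhl2 (-1.55 ± 0.07) and Esm1, endocan (-1.88 ± 0.06). Likeness here is the distance over 2 arrays of 1 pair of pools, so it says no more than that the ratios are of like size. In the RefSeq annotation the 2 compared genes on either side of each fibulin, 24 in all, had log2 ratios from -0.32 to 0.50 and none was called. Tmem87b (-0.09 ± 0.03) and Zc3h8 (-0.14 ± 0.01) flank Fbln7, and Ccdc85a (0.19 ± 0.00) and Pnpt1 (-0.22 ± 0.05) flank Efemp1.

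The hemicentins are giant relatives sometimes counted as fibulins. The 1 probe for Hmcn1 gave 98.6 and 89.3 units in the arch pool and 86.9 and 98.7 in the thoracic pool (arrays 1 and 2). Its thoracic signal was not well above background on either array, its arch signals lay under those of the brightest negative control spots, and its log2 ratios were -0.01 and 0.12, so no difference in Hmcn1 was detectable. Hmcn2 was not among the genes compared.

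Elastic fibres are built on microfibrils of fibrillin, onto which elastin is laid down and cross-linked by lysyl oxidases. The elastic fibre list held 22 genes, some of which, such as Mmrn1 and Mmrn2, are not components of the fibre. Of these 22 genes 16 lay above 0, as did 47.3% of all genes. The median log2 ratio was 0.30 (0.24 without loess), and 1 gene was called higher in the arch pool, as were 0.473% of all genes. Ltbp2, a microfibril protein that binds Fbln5, was 2.40-fold higher in the arch pool (1.26 ± 0.03), although its further probe stood at 0.06. Fbn1, fibrillin-1, stood at 0.62 ± 0.19 with a further probe at 0.59, and Loxl1, which needs Fbln5 to reach elastin, at 0.56 ± 0.04. Elastin itself, Eln, stood at 0.46 ± 0.17 and Ltbp4, which guides Fbln5 to microfibrils, at 0.41 ± 0.21.

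In this list Lox, the cross-linking partner of Efemp2, stood at -0.01 ± 0.02, near Efemp2 itself. Mmrn2 stood at 0.78 ± 0.02 and Mfge8, a milk-fat globule protein of the arterial media, at 0.57 ± 0.00. The lowest value of the list was that of Loxl2 (-0.47 ± 0.01, with a further probe at -0.02).

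Binding partners and receptors outside the elastic fibre formed the other list. Of 34 compared, none was called, where 0.618% of all genes were called in either direction, so that a count of 0 says nothing particular about them. In this list 23 genes lay above 0 and 11 below, and the median was 0.13, with or without loess. Timp3, the inhibitor bound by Efemp1, stood at 0.99 on both arrays, just under 2-fold. Next came Ccn3, a matricellular protein that binds Fbln1 (0.85 ± 0.06), and the laminin chain Lama2 (0.84 ± 0.06, with a further probe at 0.83). Nid1, nidogen-1, and the laminin chains Lamb1 and Lamc1 followed at 0.67, 0.67 and 0.61. Nid2, nidogen-2, stood at 0.43, and the other laminin chains compared stood lower, Lamb2 at 0.17, Lama5 at -0.03 and Lama1 at -0.12. The superoxide dismutase Sod3, which Fbln5 holds in the vessel wall, stood at 0.46 ± 0.08. Of the 11 genes below 0, the fibrinogen chains Fgb, Fgg and Fga stood at -0.33, -0.29 and -0.10. Lowest was Vcan, versican, a ligand of Fbln1 and Fbln2, at -0.93 ± 0.06 on its brightest probe. Its other 4 probes ranged from -0.18 to 0.05. Without a background offset Vcan was called higher in the thoracic pool.

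**Figure D4:**
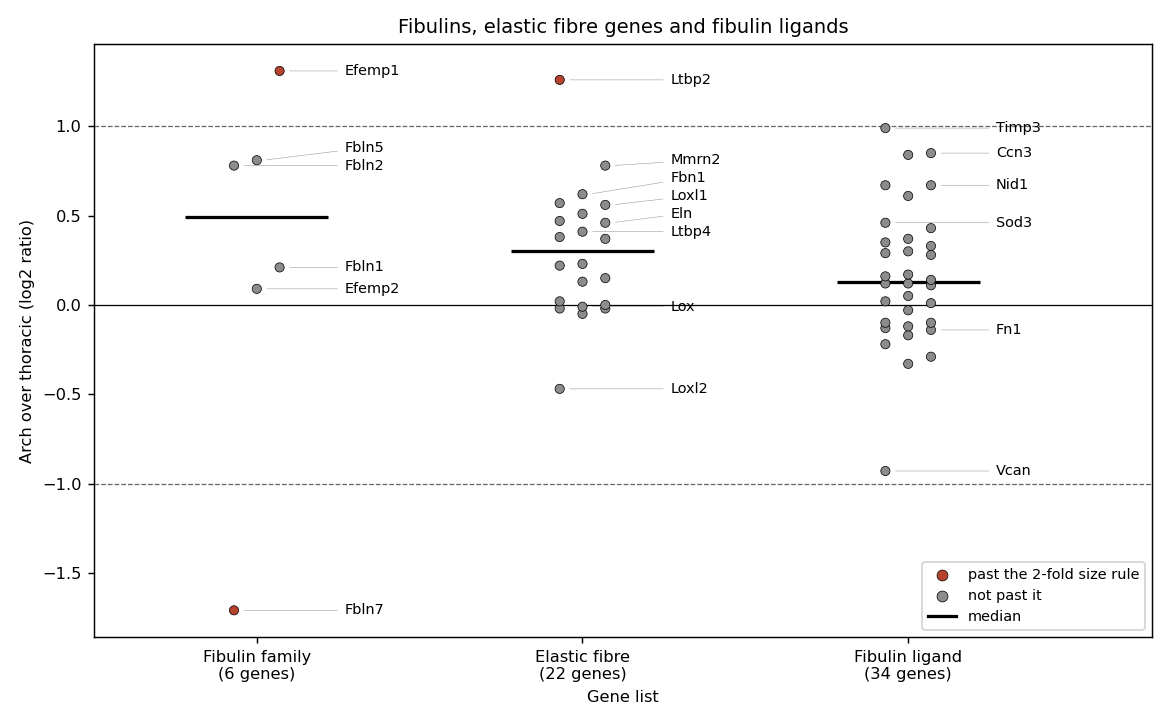
Log2 ratio of arch over thoracic (vertical axis) for each gene of the fibulin family, the elastic fibre list and the fibulin ligand list (horizontal axis), with medians as black bars, called genes in red and dashed lines at 2-fold. The medians are 0.50, 0.30 and 0.13, and the fibulins span the widest range.

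Smooth muscle, the cell type the study aimed at, was represented by all 12 of its marker genes, well above background in both pools. Their median was 0.16 (-0.04 without loess), with 0 called and 3 on saturated probes. These 3, Acta2, Tagln and Myl9, read 0.79, 0.79 and 0.68 on array 1 but -0.29 each on array 2. Their means therefore carry no direction. Markers of other cells differed between the pools beside the fibulins, and their counts stand against 0.473% of all genes called higher in the arch pool. Of 10 mesothelial genes 8 were called higher in the arch pool (summed normalized signal 11171 to 11637 in the arch pool, 4605 to 4699 in the thoracic pool), and of 10 macrophage genes 6 (50591 to 51390 in the arch pool, 20569 to 21180 in the thoracic pool). Heart muscle genes were called in 5 of 9 cases (28168 to 30894 in the arch pool, 21082 to 23010 in the thoracic pool), cartilage genes in 3 of 8 (24535 to 26911 in the arch pool, 18264 to 18593 in the thoracic pool) and endothelial genes in 1 of 8 (2221 to 2222 in the arch pool, 1279 to 1320 in the thoracic pool).

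Adventitial fibroblasts, which make several fibulins, had 1 of 16 markers called (Lum, lumican, 1.05 ± 0.02), and their median was 0.24 (0.05 without loess). This median falls at Gsn and Dcn, whose saturated probes read 0.79 and 0.77 on array 1 but -0.29 each on array 2. No direction is therefore read from it. The summed signal of the fibroblast markers, 345547 to 401410 in the arch pool and 294572 to 334382 in the thoracic pool, includes 3 saturated probes. No marker of any of these lists was called higher in the thoracic pool, where 0.145% of all genes were. There was no list for fat or skeletal muscle, and nothing about Fbln7 is read from this. All markers compared were well above background in both pools, and the cartilage genes Matn1 and Cnmd were not compared. The part of these cells in the fibulin differences was not tested, and in pooled tissue more cells of a type and more RNA per cell cannot be told apart.

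**Figure D5:**
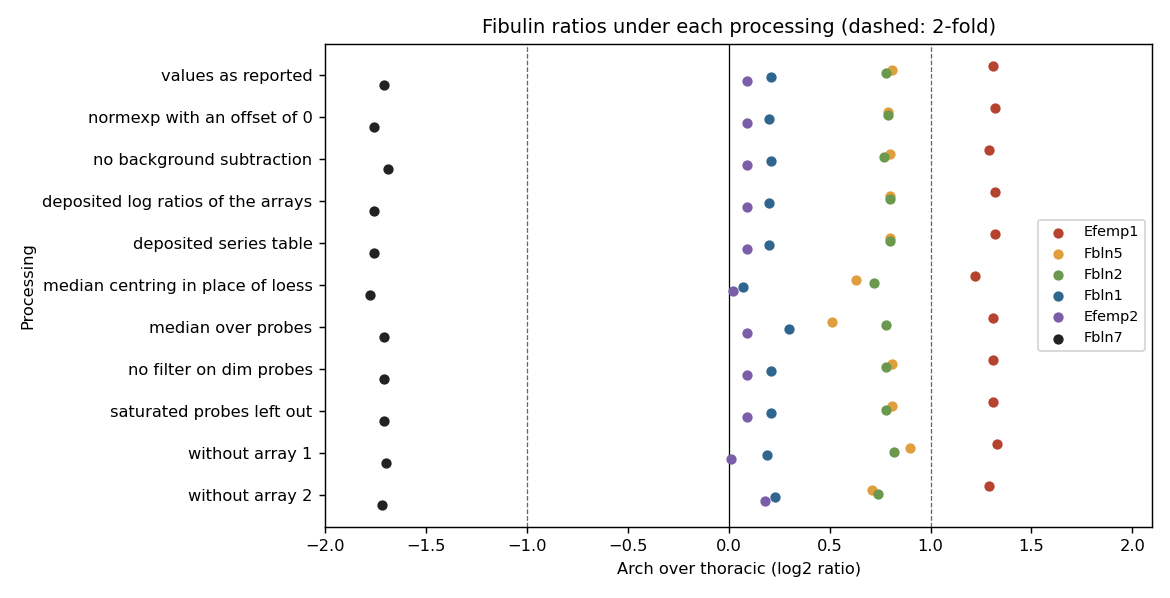
Log2 ratio of arch over thoracic (horizontal axis) of the 6 fibulins (colours) under each processing (vertical axis), with dashed lines at 2-fold and points of 1 row spread vertically for legibility. Efemp1 stays above 2-fold (1.22 to 1.33) and Fbln7 below it (-1.78 to -1.69) in all 10 alternatives, and Fbln5 moves most (0.51 to 0.90). The alternatives on dim and on saturated probes could not move any fibulin. The median over probes could not move Efemp1 or Fbln7, and both deposited forms hold the same ratios.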

How the data were processed

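Signals were read from 2 two-colour Agilent whole-genome mouse arrays. The deposited intensity values are mean spot signals with the local background median, per the file headers (Feature Extraction 8.1.1.1; the submitters' processing notes name 9.1.1.1). The deposited log ratios (log10, red against green processed signals, per the file headers) served as an alternative. The authors' deposited series table, also log10, had a median of 0 in each column, and on both arrays a correlation of 1 with the scanner's log ratio turned to arch over thoracic (0 and 1 probes differed by over 0.001), which settles scale and direction.

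Background was corrected with limma 3.58.1 (R 4.3.3) by normexp, offset 50, then loess was run within arrays, giving control spots no weight. Outlier spots (8 and 5) were left out, array 1 (thoracic in Cy5) was turned to arch over thoracic, and the arrays were averaged. A gene was compared through its brightest probe well above background in the same pool on both arrays (32176 probes, 22811 genes). The normalized signals plotted and summed were also scaled between arrays (Aquantile). Gene names came from RefSeq (GRCm38.p6): 21706 of 41534 gene spots matched by accession, 5476 by current symbol and 4672 by synonym. For the probes no genome build is given in the sources used here. The steps were tested on simulated arrays.

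The members, lists, size rule and alternatives were chosen with earlier results of these data known. Genes named are the 6 fibulins, the hemicentins, any called member of the partner lists, otherwise members by size or by a set list, and the 3 genes nearest to Efemp1 and to Fbln7. Loxl2, Nid1, Nid2, the laminin chains other than Lama2, and the fibrinogen chains were named after their values were seen. So were Lum, the other single cell markers and the genes flanking Efemp1 and Fbln7. Depth on arrays is limited by their number and by dim signals: negative control spots averaged 77.0 to 97.1 against median signals of 132.4 to 142.2.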

Additional observations from a re-analysis of the deposited data

How the results depend on the processing

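The count of fibulins called (1 towards the arch, 1 towards the thoracic pool) kept its value in the alternatives that change background, signal source, normalization, probes or arrays, and in each of them the call fell on Efemp1 and Fbln7. At a limit of 1.5-fold on the mean it was 3 towards the arch. No fibulin changed sign. Some alternatives could not move these calls: every fibulin probe passed the filter, none was saturated, and Efemp1 and Fbln7 rest on a single probe each. The deposited log ratios and the series table hold the same ratios, so they count as 1 source. Without 1 array Efemp1 lay between 1.29 and 1.33, Fbln7 between -1.72 and -1.70, Fbln5 between 0.71 and 0.90, and Efemp2 between 0.01 and 0.18. Median centring in place of loess lowered Fbln1 to 0.07 and Fbln5 to 0.63, and the median over probes put Fbln5 at 0.51.

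Partner genes called towards the thoracic pool (0) became 1, Vcan, with an offset of 0, in the deposited log ratios, in the series table and at 1.5-fold. Those called towards the arch (1, Ltbp2) became 0 with the median over probes and 7 at 1.5-fold. All genes called (108 towards the arch, 33 towards the thoracic pool) became 196 and 66 with an offset of 0, 232 and 77 in both deposited forms, and 274 and 88 at 1.5-fold. The cause of these moves was not tested, apart from the wider limit, which admits more genes by construction. The offset of 50 draws the ratios of dim probes towards 0. No paired analysis was possible because there is 1 pool per segment. The log2 ratios are themselves differences within an array.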

Other observations

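A further probe, named in the files by a cDNA accession and described there as a fibulin 5 clone, fell outside the rule for members. It gave 106 and 89.7 units in the arch pool and 90.1 and 105 in the thoracic pool on arrays 1 and 2, was well above background in 1 of these 4 readings, and had log2 ratios of 0.03 on both arrays.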
